A study of Mus musculus with 8 samples.

Results

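Mouse embryonic stem (ES) cells of a clonal line that carries a doxycycline-inducible transgene for Ctcfl, clone 6, were compared after 48 h with 2 µg/ml doxycycline and without it. The genes described are all those at 1 FPKM or more (fragments scaled to transcript length and sequencing depth) in either group of this line, 12288 of 23284 gene entries. The comparison line, clone 7, lacks the transgene and was grown with and without doxycycline in the same way. Both lines are ES cells of mixed strain, and each is 1 clone, so a difference between them cannot be told apart from a difference between clones. All cells were kept on mouse embryonic fibroblast feeders and were replated without feeders for the 48 h. Each of the 4 groups had 2 libraries from 2 repeats of the experiment, read as 75 bp single ends, and the authors deposited 1 combined FPKM value per gene and group. Every level below is therefore a group value with no SD, the depth behind it is unknown, and differences are judged by the authors' own test. The FPKM values of all genes summed to 729893 with doxycycline and 737443 without it.

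Ctcfl, also called BORIS, is the paralog of Ctcf, the zinc finger protein that binds insulators and, together with the cohesin ring, shapes chromosome loops. Ctcf is made in nearly all cells, whereas Ctcfl is normally made mainly in the male germline, where it binds many of the same DNA sites and is needed for full expression of several testis genes. Doxycycline is an antibiotic that switches on transgenes built with a tetracycline-controlled promoter. Mouse ES cells move between a naive state, like the inner cell mass, and a primed state, like the epiblast before gastrulation.

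The level of Ctcfl, the gene of the transgene, was checked first. Ctcfl stood at 0.995 FPKM with and 0.403 FPKM without doxycycline in clone 6, and at 0.498 and 0.513 FPKM in clone 7. The clone 6 group with doxycycline was the highest of the 4, but the difference did not pass in the authors' deposited table (2.47-fold, p = 0.0062, q = 0.296). Ctcfl was below 1 FPKM in every group and so is not among the genes counted here. Not given in the sources used here is which part of the transcript the transgene carries. Ctcf itself was at 50.5 and 54.0 FPKM in clone 6 and was not called.

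Of the 12182 genes at 1 FPKM or more that the authors tested, 13 were called at a deposited q-value under 0.05, 11 higher and 2 lower with doxycycline. That is 0.107% of these genes, 0.0903% higher and 0.0164% lower. Over all 13003 genes tested, 14 were called (0.108%), 12 higher (0.0923%) and 2 lower (0.0154%), and the one gene below 1 FPKM was 1700019B21Rik, which was listed at 0 without doxycycline and stood at 0.660 FPKM after it. The same doxycycline treatment gave no call among 12908 tested genes in clone 7 (0%), where 14 of 12130 genes at 1 FPKM or more had an unadjusted p under 0.05 (0.115%). In clone 6 the unadjusted p was under 0.05 for 128 of 12182 genes (1.05%), 79 higher (0.648%) and 49 lower (0.402%). In both lines this share was below the 0.05 that evenly spread p-values would give. These counts are therefore no measure of an excess of changed genes. The deposited q-values were adjusted over all 6 pairwise comparisons of the study together. Adjusted by Benjamini-Hochberg within the clone 6 comparison alone, no gene passed, and the smallest adjusted p was 0.0929.

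The 12 called genes described here fall into an epithelial group (Krt8, Krt18, Dsp, Cldn4 and Cdh3), a germline pair (Prss50 and Rec8), and 5 genes of signalling and transcription (Cited1, Tgfb1, Jak2, Id2 and Prex2). In build mm10 the epithelial genes other than the keratin pair lie at chr13:38151294-38198577 (Dsp), chr5:134945124-134946934 (Cldn4) and chr8:106510891-106556908 (Cdh3), and Cited1 lies at chrX:102247440-102251769. Tgfb1 lies at chr7:25687002-25704996, Id2 at chr12:25093799-25096092 and Prex2 at chr1:10993465-11303682. In clone 7, 5 of the 13 called genes differed in the same direction. Whether the 2 lines responded differently was tested, gene by gene, by a two-sided normal approximation built from the deposited ratios and test statistics. With 1 combined value per group no exact test can be made, so these p-values are approximate. The unadjusted p of this approximation was under 0.05 for 8 of the 13 genes, and for 58 of all 12634 genes tested. The 13 genes were chosen by their response in the line with the transgene, in these same data. That choice favours a difference between the lines, so the 8 of 13 cannot show a response specific to that line. Of the 13, 1 gene, Prss50, passed Benjamini-Hochberg adjustment over 12634 genes (18 called, 0.142%).

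**Figure D1:**
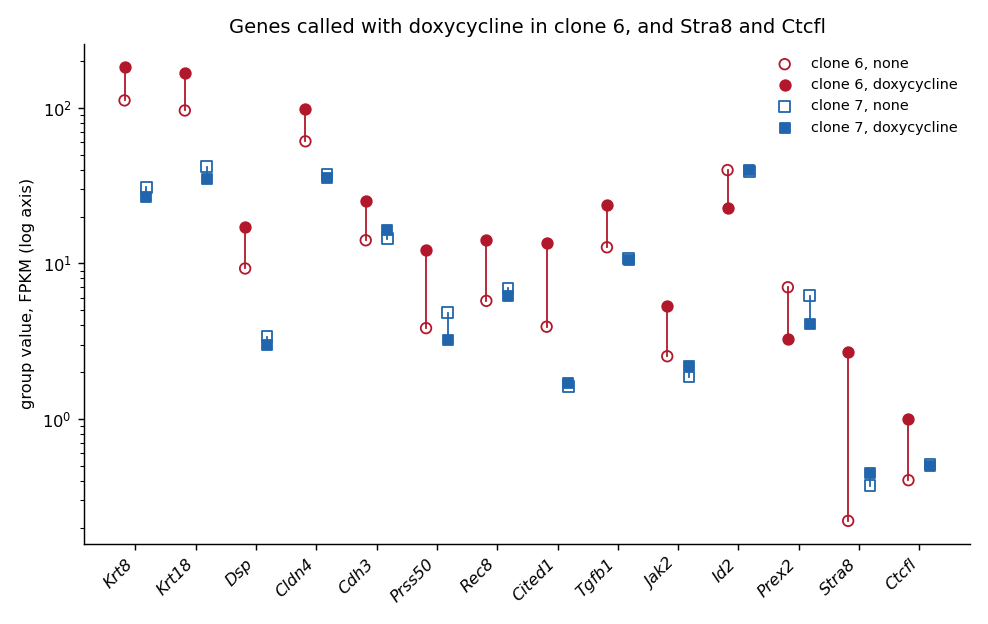
Group FPKM values (log axis) of 12 genes at 1 FPKM or more that were called in clone 6, with Stra8 and Ctcfl, which were not called. Circles are clone 6 and squares clone 7, filled with doxycycline and open without it, each the authors' combined value of 2 libraries; Krt8 stood at 112 and 184 FPKM in clone 6 and at 30.8 and 26.8 FPKM in clone 7.

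Krt8, Krt18 and Cldn4 had the highest levels of the called genes. Krt8 and Krt18 encode the keratin pair that forms the intermediate filaments of simple epithelia and of the first epithelium of the embryo. Krt8 was at 184 FPKM with and 112 FPKM without doxycycline in clone 6, and at 26.8 and 30.8 FPKM in clone 7. Krt18 was at 167 and 96.3 FPKM in clone 6, and at 35.0 and 41.8 FPKM in clone 7. Both rose in clone 6 in the authors' deposited table, 1.65-fold for Krt8 (q = 0.02) and 1.73-fold for Krt18 (q = 0.00812). Both were lower with doxycycline in clone 7, and even without doxycycline both stood higher in clone 6 than in either clone 7 group. The unadjusted p for the difference of responses was 0.000454 for Krt18 and 0.00194 for Krt8, with adjusted p-values of 0.239 and 0.817.

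Krt8 and Krt18 are neighbours on chromosome 15, 23.9 kb apart and divergent. Their promoters are shown because these were the only neighbours among the 13 called genes. The windows, from RefSeq on build GRCm38.p6, run from 250 bases before to 50 bases after the annotated start, chr15:102004293-102004592 on the minus strand and chr15:102027966-102028265 on the plus strand. Capitals mark CCCTC on either strand, a short core within the Ctcf and Ctcfl recognition sequence.
Krt8: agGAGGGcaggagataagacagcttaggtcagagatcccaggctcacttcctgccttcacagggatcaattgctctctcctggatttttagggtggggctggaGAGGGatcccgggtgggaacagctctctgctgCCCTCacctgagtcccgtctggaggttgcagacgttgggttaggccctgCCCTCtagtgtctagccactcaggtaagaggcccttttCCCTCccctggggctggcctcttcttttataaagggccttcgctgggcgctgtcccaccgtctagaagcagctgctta
Krt18: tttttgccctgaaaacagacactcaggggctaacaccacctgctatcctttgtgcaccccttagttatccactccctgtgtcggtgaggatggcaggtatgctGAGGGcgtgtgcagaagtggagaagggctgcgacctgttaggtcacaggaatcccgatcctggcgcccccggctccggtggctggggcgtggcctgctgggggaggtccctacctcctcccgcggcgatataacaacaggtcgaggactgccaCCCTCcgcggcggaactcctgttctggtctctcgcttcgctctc
The Krt8 window held 5 matches and the Krt18 window 2. So short a motif is common: 66.0% of all 32851 promoter windows of this length held at least 1, as did 79.2% of the 8667 genes at 1 FPKM or more, outside small RNA genes, that were matched by symbol. Of the 10 called genes with a promoter entry 9 held it. A longer consensus of the Ctcf core was in 2.43% of all windows, in 3.45% of the matched genes at 1 FPKM or more and in none of the 10. At so low a share, 10 genes are too few to show a lack of it.

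Elsewhere, the nearest measured genes on both sides of the 13 called genes, 26 in all, were examined as well. Apart from Krt8 and Krt18 none was called, and the others' differences ran from -0.24 to 0.42 on the log2(FPKM + 1) scale. Ipo4, which lies 0.234 kb from Rec8, was at 53.4 and 57.6 FPKM. Cdh1, the E-cadherin gene next to Cdh3, was at 194 and 187 FPKM. Cldn3, next to Cldn4, had the highest of the neighbours' differences outside the keratins, at 17.1 and 12.5 FPKM (p = 0.154 in the authors' deposited table).

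Cell junction genes were called in the same direction. Dsp encodes desmoplakin, which anchors keratin filaments at desmosomes, and was at 17.1 FPKM with and 9.27 FPKM without doxycycline in clone 6. It was at 2.99 and 3.38 FPKM in clone 7. It rose 1.84-fold in the authors' deposited table (q = 0.00812). Cldn4, a claudin of tight junctions, was at 98.4 and 61.0 FPKM in clone 6 and 35.6 and 37.4 FPKM in clone 7. It rose 1.61-fold, with a deposited q of 0.04995 in the authors' deposited table, just inside the threshold. Cdh3, which encodes P-cadherin, was at 25.2 and 14.1 FPKM in clone 6 and 16.4 and 14.4 FPKM in clone 7. It rose 1.79-fold in the authors' deposited table (q = 0.0344) and was also higher with doxycycline in clone 7.

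The wider epithelial lists held more genes above 0 than below it in clone 6. Of 6 genes of simple epithelial keratins, a list that includes Sfn, 5 were above 0 and 1 below, with a median difference of 0.41 on the log2(FPKM + 1) scale, and 2 were called. In clone 7 the same genes gave a median of -0.22. Sfn, which encodes the epithelial 14-3-3 protein stratifin, was at 329 and 232 FPKM (p = 0.007 in the authors' deposited table, not called). Of 20 tight junction genes 17 were above 0 (median 0.13), and Cldn4 alone was called. Of 19 desmosome and adherens junction genes 14 were above 0 (median 0.11), with Dsp and Cdh3 called and Jup, which encodes plakoglobin, at 44.0 and 33.3 FPKM (p = 0.0377 in the authors' deposited table). Ctnnb1, which encodes the adherens junction protein beta-catenin, was at 240.2 and 244 FPKM. Regulators of epithelial identity gave no call among 22 genes (13 above 0, median 0.06). In clone 7, too, the tight junction list and the desmosome and adherens junction list held more genes above 0 than below it. The regulators there held as many above 0 as below it. For comparison, the median over all 12288 genes was 0.001 in clone 6, with 50.4% of genes above 0, and 0.02 in clone 7, with 57.6% above 0. With no FPKM minimum the medians of the keratin and tight junction lists in clone 6 were 0.23 and 0.06.

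The germline pair rose to levels above those of both clone 7 groups. Prss50, also called Tsp50, encodes a serine protease of the testis. It was at 12.2 FPKM with and 3.83 FPKM without doxycycline in clone 6, against 3.21 and 4.82 FPKM in clone 7. Only the clone 6 group with doxycycline was above 5 FPKM. It rose 3.18-fold in the authors' deposited table (q = 0.00812). The responses of the 2 lines differed by 2.26 on the log2 scale (SE 0.53, adjusted p = 0.0126 by the normal approximation from the authors' deposited statistics). With standard errors taken from the deposited p-values no gene passed this test and the unadjusted p for Prss50 was 0.000415, and with small RNA genes left out before adjustment its adjusted p was 0.0753.

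Rec8 encodes the meiotic kleisin, the subunit that closes the cohesin ring in germ cells in place of Rad21. It was at 14.1 FPKM with and 5.74 FPKM without doxycycline in clone 6, and at 6.16 and 6.93 FPKM in clone 7. It rose 2.46-fold in the authors' deposited table (q = 0.00812), and the difference of responses had an unadjusted p of 0.00279 and an adjusted p of 1. Rec8 was the only gene called among 19 genes for Ctcf, cohesin and its loaders and regulators. Of these, 12 were above 0 in clone 6 (median 0.03), fewer than in clone 7. The mitotic kleisin Rad21 was at 80.9 and 81.9 FPKM and the ring subunit Smc3 at 57.1 and 56.0 FPKM. Stag3, another meiotic cohesin subunit, was at 4.11 and 3.68 FPKM.

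Stra8, the gene that germ cells switch on at entry into meiosis, had a larger ratio than any called gene at 1 FPKM or more but was not called. It was at 2.71 FPKM with and 0.221 FPKM without doxycycline in clone 6, and at 0.449 and 0.372 FPKM in clone 7. The authors' deposited table gives 12.3-fold (p = 0.00095, q = 0.0809). Of 34 germline and meiosis genes at 1 FPKM or more, 25 were above 0 and 9 below in clone 6 (median 0.08, and 0.03 with no minimum). More of them were above 0 than below it in clone 7 as well. In clone 6, Prss50 was called, and Stra8 and Tex14 had an unadjusted p under 0.05. Stra8, Tex14 and Mei4 reached 1 FPKM only with doxycycline in clone 6, and Tex101 only without it. The minimum itself thus set their side of 0. Of the members that were not called, Dmc1, a recombinase, stood at 4.23 and 3.93 FPKM, Sycp3, a protein of the synaptonemal complex, at 12.3 and 12.8 FPKM, and Gal3st1, a gene of testis lipid synthesis, at 1.46 and 1.10 FPKM.

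The promoters of Prss50, Rec8 and Jak2 share a run of 9 letters, TGGAGGGCG, which is shown in capitals. This run was noticed by reading the promoters of the called genes and was searched for afterwards, so its presence in these 3 is what chose it and is no test. The windows are chr9:110857714-110858013, chr14:55617916-55618215 and chr19:29251553-29251852, all on the plus strand of GRCm38.p6 in RefSeq. Prss50 has 2 entries that start 3 bases apart, and the first is shown.
Prss50: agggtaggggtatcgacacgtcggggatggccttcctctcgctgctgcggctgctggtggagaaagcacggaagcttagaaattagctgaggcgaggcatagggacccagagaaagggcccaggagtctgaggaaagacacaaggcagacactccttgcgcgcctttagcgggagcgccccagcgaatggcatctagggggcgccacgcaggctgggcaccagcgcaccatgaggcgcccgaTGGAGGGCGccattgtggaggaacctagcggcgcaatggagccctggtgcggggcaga
Rec8: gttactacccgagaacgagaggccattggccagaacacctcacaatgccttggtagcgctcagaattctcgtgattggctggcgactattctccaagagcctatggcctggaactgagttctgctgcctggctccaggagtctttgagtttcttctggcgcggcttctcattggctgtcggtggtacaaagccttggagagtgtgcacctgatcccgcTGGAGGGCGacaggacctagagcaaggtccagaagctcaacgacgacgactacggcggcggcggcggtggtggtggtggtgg
Jak2: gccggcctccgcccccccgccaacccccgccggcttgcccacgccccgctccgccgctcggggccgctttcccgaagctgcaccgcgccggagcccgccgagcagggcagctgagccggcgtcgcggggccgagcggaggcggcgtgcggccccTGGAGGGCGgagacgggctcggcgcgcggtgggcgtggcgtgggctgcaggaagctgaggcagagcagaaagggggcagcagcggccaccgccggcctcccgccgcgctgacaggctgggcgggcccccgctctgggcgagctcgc
On either strand, TGGAGGGCG was in 225 of 32851 windows (0.685%) and in 144 of 8667 matched genes at 1 FPKM or more (1.66%), so most genes that hold it were not called. It includes GAGGG, the reverse complement of CCCTC. The Jak2 window is 81% G and C, against a median of 61.3% over the matched genes, and those of Prss50 and Rec8 are at 64% and 58.3%.

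The called genes of signalling and transcription are given in turn, and whether they act in shared pathways was not tested. Cited1, a transcriptional coactivator that binds Smad4 and the acetyltransferases p300 and CBP, was at 13.5 FPKM with and 3.92 FPKM without doxycycline in clone 6. It was at 1.69 and 1.61 FPKM in clone 7. It rose 3.44-fold in the authors' deposited table (q = 0.0145), the largest of the 13 ratios. Of its list of 6 genes 5 were above 0, and Tfap2c, a partner transcription factor also used in trophoblast and germ cells, was at 14.9 and 10.9 FPKM (p = 0.0418 in the authors' deposited table, not called).

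Tgfb1, the secreted ligand of the TGF-beta receptors, was at 23.6 FPKM with and 12.7 FPKM without doxycycline in clone 6. It was at 10.5 and 10.8 FPKM in clone 7. It rose 1.86-fold in the authors' deposited table (q = 0.0429). Of the 26 genes of the TGF-beta list, Tgfb1 included, 13 were above and 13 below 0 (median 0.004), and Tgfb1 was the only call.

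Id2, which blocks basic helix-loop-helix factors and is a target of BMP signalling, was at 22.8 FPKM with and 39.8 FPKM without doxycycline in clone 6. In clone 7 it was at 40.0 and 39.0 FPKM, level with the untreated clone 6 group. It fell in the authors' deposited table and was 1.75-fold higher without doxycycline (q = 0.0462). Of 28 genes of BMP signalling and Id factors, 19 were below 0 (median -0.08). Id1 was at 76.7 and 109 FPKM (p = 0.0208 in the authors' deposited table, not called) and Id3 at 93.7 and 115 FPKM. The ligand Bmp4 was at 5.47 and 3.68 FPKM.

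Jak2, a tyrosine kinase that works at cytokine receptors, was at 5.30 FPKM with and 2.53 FPKM without doxycycline in clone 6, and at 2.18 and 1.87 FPKM in clone 7. It rose 2.09-fold in the authors' deposited table (q = 0.00812) and was the only call among 26 Jak and Stat genes (17 above 0, median 0.03). Prex2, an exchange factor that activates Rac, was at 3.28 FPKM with and 7.02 FPKM without doxycycline in clone 6. It fell, and was 2.14-fold higher without doxycycline in the authors' deposited table (q = 0.00812). In clone 7, too, Prex2 was lower with doxycycline, at 4.096 against 6.21 FPKM (p = 0.0149 in the authors' deposited table, not called), and the difference of responses had a p of 0.455.

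**Figure D2:**
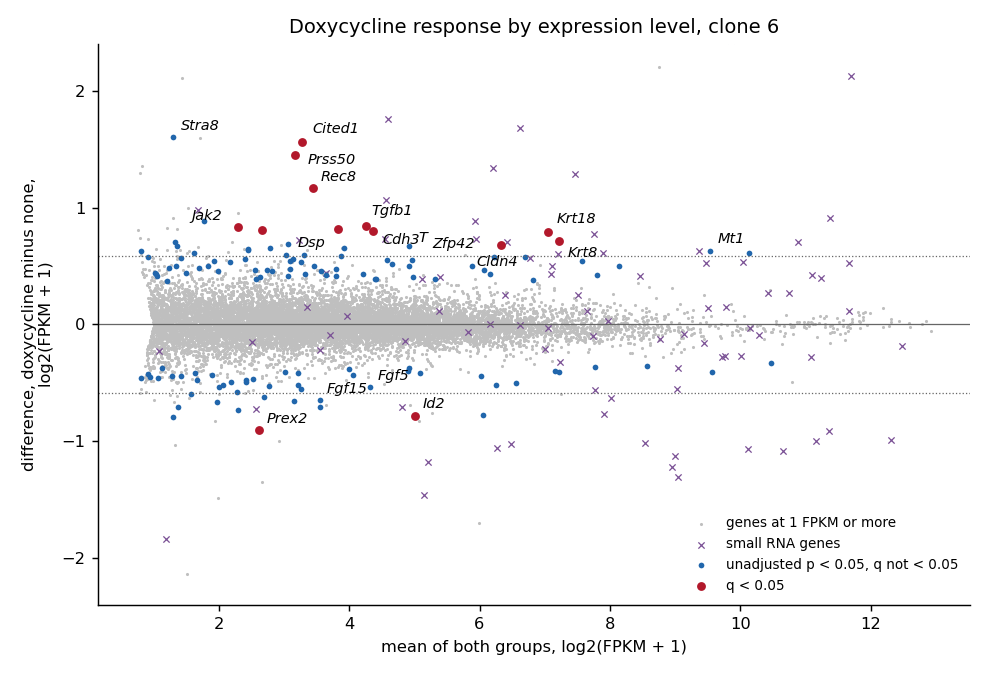
Difference with doxycycline minus without it in clone 6 on the log2(FPKM + 1) scale, against the mean level of both groups, for 12288 genes; dotted lines mark 1.5-fold. Red points are the 13 called genes, blue points have an unadjusted p under 0.05 only, crosses are small RNA genes, and 62 genes beyond 2.4 on either side, 61 of them small RNA genes, are not drawn.

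Over the 12288 genes, the lower and upper quartiles of the difference were -0.076 and 0.088 on the log2(FPKM + 1) scale in clone 6 and -0.06 and 0.088 in clone 7. In clone 6, 110 genes were 1.5-fold or more higher with doxycycline (0.895%) and 75 lower (0.61%). In clone 7, 47 of the same genes were higher (0.382%) and 65 lower (0.529%). Small RNA genes, those for microRNAs and small nucleolar or spliceosomal RNAs, made up 97 of these in clone 6, out of 146 such genes in all (66.4%). An FPKM of so short a gene divides by a very short length, and 57 of the 59 genes listed at 0 in 1 group were small RNA genes. Leaving them out, a choice made after seeing the data, gave 57 higher (0.469%) and 31 lower (0.255%) in clone 6, and 19 (0.156%) and 30 (0.247%) in clone 7. In all, 411 genes reached 1 FPKM in 1 group alone, 215 of them with doxycycline, and none was called. For such genes the minimum itself set the side of 0 in clone 6, in the counts of each list as well.

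The genes of pluripotency were examined next, since the markers of ES cells were present in all groups. Pou5f1, which encodes Oct4, was at 1011 FPKM with and 1116 FPKM without doxycycline in clone 6. Of 18 core pluripotency genes 7 were above and 11 below 0 (median -0.09), and none was called. Nanog was at 128 and 97.6 FPKM (p = 0.0437 in the authors' deposited table). In clone 7 the median of this list was 0.12, with 17 of 18 above 0.

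Genes of the naive state mostly had higher values with doxycycline in both lines. Of 28 such genes 25 were above 0 in clone 6 (median 0.29) and all 28 in clone 7 (median 0.27), and none was called in either. Of these, 4 had a p below 0.05 before adjustment in clone 6, in the authors' deposited table from p = 0.00535 to p = 0.0415. The share over all tested genes at 1 FPKM or more was 1.05% in clone 6 and 0.115% in clone 7. Zfp42, also called Rex1, was at 88.3 and 58.8 FPKM in clone 6 and 20.1 and 18.9 FPKM in clone 7. The nuclear receptor Esrrb was at 28.6 and 19.7 FPKM in clone 6 and 43.1 and 32.8 FPKM in clone 7. The other two were Nr4a1, an early response nuclear receptor, and Tfcp2l1, a transcription factor of the naive network. In clone 7, Gbx2, Nr5a2 and Nr0b1 were higher with doxycycline (p = 0.023, p = 0.02315 and p = 0.02485 in the authors' deposited table). The median of this list was about as large in the line without the transgene.

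Genes of the primed epiblast lay on the other side in clone 6. Of 27 genes 22 were below 0 (median -0.19), against 15 of 27 in clone 7 (median -0.02). The one call was Krt18, which rose. Below 0, 7 genes had a p below 0.05 before adjustment, in the authors' deposited table from p = 0.0083 to p = 0.0391, and none of these was called. Fgf5, the classical marker of this state, was at 15.3 and 22.6 FPKM in clone 6 and 12.5 and 12.9 FPKM in clone 7. The growth factor Fgf15 was at 8.11 and 13.3 FPKM, the neurofilament gene Nefl at 61.9 and 89.0 FPKM and the POU factor Pou3f1 at 54.0 and 73.6 FPKM. The DNA methyltransferase gene Dnmt3b was at 331 and 424 FPKM, and the others were Sall2 and Pim2.

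Genes of the primitive streak and early mesoderm were examined in the same way. Of 22 genes 16 were above 0 in clone 6 (median 0.15, and 0.08 with no minimum) and 10 in clone 7 (median -0.004), with no call. Msgn1, Cdx1 and Hand1 reached 1 FPKM only with doxycycline in clone 6, and no member did so only without it. The minimum thus set their place above 0 in clone 6 but not in clone 7, so the 2 counts are not alike. T, which encodes Brachyury, was at 36.3 FPKM with and 22.4 FPKM without doxycycline in clone 6 (p = 0.0021 in the authors' deposited table), and at 2.02 and 1.67 FPKM in clone 7. The homeobox gene Mixl1 was at 3.50 and 2.08 FPKM, and the Wnt target Sp5 was at 34.4 FPKM after doxycycline (p = 0.022 and p = 0.0208 in the authors' deposited table, both higher with doxycycline). The summed level of the list was 339.9 FPKM with and 304 without doxycycline in clone 6, and 108 and 115 in clone 7. The lines thus differed in these genes more than the treatments did, and the 2 groups of clone 6 were both above those of clone 7.

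**Figure D3:**
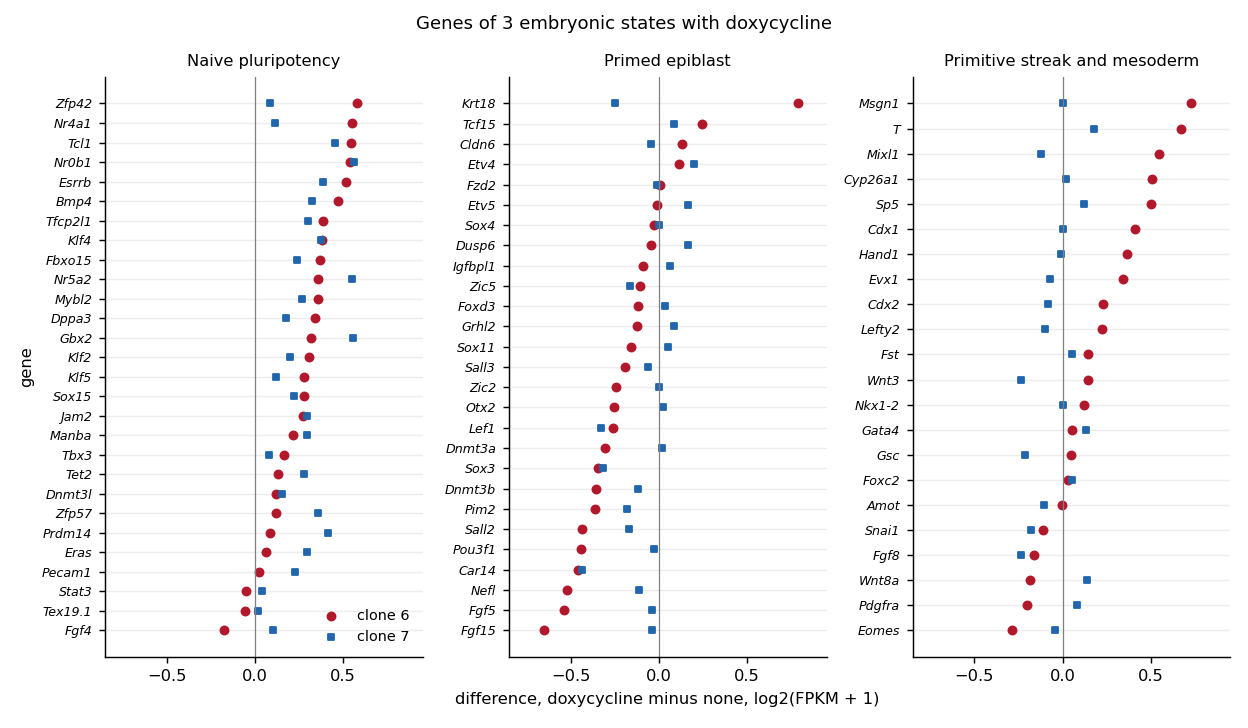
Difference with doxycycline minus without it, on the log2(FPKM + 1) scale, for 28 genes of naive pluripotency, 27 of the primed epiblast and 22 of the primitive streak and mesoderm. Circles are clone 6 and squares clone 7; naive genes lie mostly above 0 in both lines (medians 0.29 and 0.27), and primed genes mostly below 0 in clone 6 (medians -0.19 and -0.02).

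The signalling lists around these states gave no call. Of 47 Wnt genes 19 were above 0 (median -0.03), with the feedback gene Axin2 at 13.3 and 9.70 FPKM (p = 0.0403 in the authors' deposited table). Of 37 FGF and Erk genes 23 were above 0 (median 0.03), with the phosphatase gene Dusp4 at 35.1 and 26.2 FPKM (p = 0.0423 in the authors' deposited table). Smaller p-values on this list belonged to Fgf15 and Fgf5, both lower with doxycycline (p = 0.0083 and p = 0.0092 in the authors' deposited table). Of 15 Nodal and activin genes 11 were above 0 (median 0.1), with the Nodal inhibitor Lefty1 at 324 and 302 FPKM. Of 18 retinoic acid genes 10 were above 0 (median 0.01), and Stra8, named for its response to retinoic acid, was the only one at an unadjusted p under 0.05.

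Markers of other cell types that the dishes could hold were counted too. Feeder fibroblast markers summed to 1826 FPKM with doxycycline and 1773 without it in clone 6, and to 1413 and 1412 in clone 7. Of 35 markers 15 were above and 20 below 0 (median -0.02), with the collagen gene Col1a1 at 139.6 and 132 FPKM. Mmp3, a secreted protease, was the only one at an unadjusted p under 0.05, at 2.03 and 3.81 FPKM (p = 0.0144 in the authors' deposited table). In bulk RNA, fewer cells of a type and less RNA per cell cannot be told apart. Of the 2-cell-like list 2 of 17 genes reached 1 FPKM in clone 6. They were Eif1a at 56.3 and 54.5 FPKM and Zfp1 at 16.1 and 17.9 FPKM, and the list's other members did not reach it. The levels of these 2 genes alone do not show that 2-cell-like cells were present.

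Trophoblast genes, which include Krt8 and Krt18, gave 16 of 21 above 0 (median 0.22, and 0.12 with no minimum) and those 2 calls, against 9 of 21 above 0 in clone 7. Eomes, a defining factor of trophoblast stem cells that also marks the streak, was at 15.2 and 18.8 FPKM, and Cdx2 at 1.84 and 1.42 FPKM. The imprinted gene Peg10, of placental development, was at 76.5 and 55.0 FPKM (p = 0.0057 in the authors' deposited table, not called). Smooth muscle and cytoskeletal genes gave 18 of 22 above 0 (median 0.13) and endoderm and basement membrane genes 15 of 19 (median 0.11), neither with a call. Most genes of both lists were above 0 in clone 7 as well. Neural genes gave 14 of 16 below 0 (median -0.16), and 13 of 16 in clone 7 (median -0.05). The part of such cells in the epithelial calls was not tested.

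The metallothionein genes Mt1 and Mt2 encode small proteins that bind zinc and copper. Mt1 was at 902 FPKM with and 582 FPKM without doxycycline in clone 6, and at 944 and 892 FPKM in clone 7. Mt2 was at 1359 and 889 FPKM in clone 6, and at 1574 and 1327 FPKM in clone 7. The untreated clone 6 group was the lowest of the 4 for both genes. Neither was called in the authors' deposited table (p = 0.00135, q = 0.104 for Mt1; p = 0.002, q = 0.136 for Mt2). The zinc exporter gene Slc30a1 was at 10.5 and 7.51 FPKM (p = 0.0482 in the authors' deposited table). Of the whole list of 15 metallothionein and zinc genes, these 3 included, 7 were above 0 (median -0.07, and 0.02 with a minimum of 5 FPKM).

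Mt1 and Mt2 lie 5.52 kb apart on chromosome 8, and their promoters are shown because both had higher values with doxycycline and because metallothionein promoters are known for metal response elements, whose core is TGCNCNC. The windows are chr8:94178839-94179138 and chr8:94172368-94172667, both on the plus strand of GRCm38.p6 in RefSeq, with that core on either strand in capitals.
Mt1: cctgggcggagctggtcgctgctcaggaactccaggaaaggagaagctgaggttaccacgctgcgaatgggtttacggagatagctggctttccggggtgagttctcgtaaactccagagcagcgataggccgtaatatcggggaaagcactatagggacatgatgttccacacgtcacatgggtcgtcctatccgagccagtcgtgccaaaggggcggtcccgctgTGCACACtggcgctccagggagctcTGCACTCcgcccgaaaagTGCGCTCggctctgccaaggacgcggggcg
Mt2: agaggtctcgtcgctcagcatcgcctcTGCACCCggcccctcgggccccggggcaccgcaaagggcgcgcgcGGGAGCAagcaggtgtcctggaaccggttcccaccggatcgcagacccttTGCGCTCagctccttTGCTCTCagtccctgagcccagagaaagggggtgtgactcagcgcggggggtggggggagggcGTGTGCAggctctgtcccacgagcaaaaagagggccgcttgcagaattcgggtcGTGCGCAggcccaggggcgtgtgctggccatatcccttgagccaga
The Mt1 window held 3 matches and the Mt2 window 6. At least 1 match was in 51.0% of all promoter windows, in 65.1% of the matched genes at 1 FPKM or more and in 8 of the 10 called genes with an entry, so a single match is common.

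Glycolysis and lipid synthesis lists had medians below 0 in both lines. Of 37 glycolysis and hypoxia genes 30 were below 0 in clone 6 and 28 in clone 7, with medians of -0.11 in both, and none was called. In clone 6, 4 had a p below 0.05 before adjustment, in the authors' deposited table from p = 0.0146 to p = 0.0371. They were the prolyl hydroxylase gene Egln3 at 6.78 and 10.4 FPKM, the glycolytic gene Pgk1 at 648 and 859 FPKM, the lactate exporter gene Slc16a3 at 127 and 169 FPKM and Ldha. Egln3 was at 14.1 and 20.3 FPKM in clone 7 (p = 0.0331 in the authors' deposited table). Ddit4, of the same list, was at 43.9 and 65.8 FPKM in clone 7 (p = 0.01175 in the authors' deposited table). Of 35 sterol and fatty acid genes 28 were below 0 (median -0.09), and 25 in clone 7.

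Lists for growth and stress gave no call. The medians in clone 6 were 0.03 for 82 nuclear genes of oxidative phosphorylation, -0.05 for 76 mitochondrial ribosomal genes and -0.004 for 81 cytosolic ribosomal genes. They were 0.006 for 37 genes of Atf4 and the unfolded protein response, -0.02 for 27 genes of mitochondrial stress, -0.03 for 38 of p53 and apoptosis and -0.03 for 46 of the cell cycle. Doxycycline also blocks mitochondrial ribosomes, and the mitochondrial stress gene Mthfd2 was at 59.5 and 52.0 FPKM. Interferon and MHC genes gave 16 of 25 below 0 in each line. Medians were -0.03 for 20 genes of the Myc network, -0.09 for 20 host genes of small nucleolar RNAs, -0.04 for 44 genes of DNA and histone methylation, 0.0005 for 41 imprinted genes and -0.03 for 16 genes of Rac exchange, where Prex2 was the one call.

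Histone cluster genes had the highest list median in clone 6, 0.53 over 29 genes, 25 of them above 0, but 18 were tested and none was called. More of these genes reached 1 FPKM only with doxycycline than only without it, which favours values above 0. With a minimum of 5 FPKM the median was 0.09, and with no minimum 0.07. Hist1h1a, a linker histone gene, was at 3.42 and 1.39 FPKM (p = 0.0338 in the authors' deposited table). These genes are short and near-identical to each other, so their values are uncertain.

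**Figure D4:**
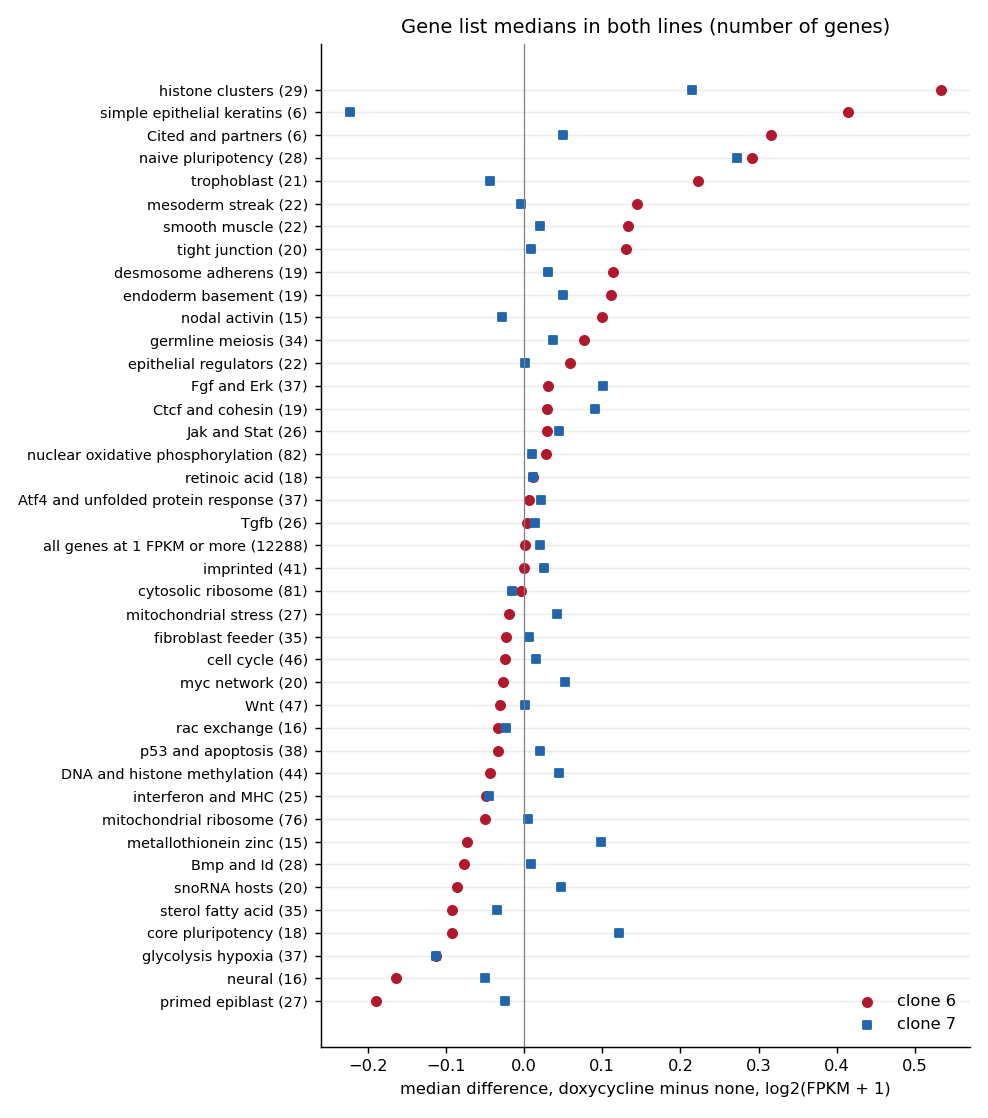
Median difference with doxycycline minus without it, on the log2(FPKM + 1) scale, for each gene list with 5 or more genes at 1 FPKM or more (number of genes in brackets) and for all 12288 genes. Circles are clone 6 and squares clone 7. Naive pluripotency (0.29 and 0.27) and glycolysis (-0.11 in both) lie together. Simple epithelial keratins lie apart in the 2 lines (0.41 and -0.22), but that list holds the called genes Krt8 and Krt18. With no FPKM minimum its clone 6 median was 0.23.

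Counting list members too, 113 genes outside small RNA genes had an unadjusted p under 0.05 without being called, 66 higher and 47 lower with doxycycline. In clone 7, 50 of the 66 were also higher and 37 of the 47 also lower, where 57.9% of all genes outside small RNA genes were above 0, and 2 had a p under 0.05 there. After Stra8, the highest by difference were Hist1h1a, Synpo2l at 2.11 and 0.908 FPKM, Usp11 at 9.31 and 5.42 FPKM and T. Synpo2l encodes an actin-bundling protein of muscle and Usp11 a deubiquitinase. Next came Sprr2a2, a gene of the epidermal cornified envelope, at 2.15 FPKM with and 0.981 FPKM without doxycycline in clone 6 (p = 0.001 and q = 0.0842 in the authors' deposited table) and at 0.141 and 0.142 FPKM in clone 7. Others of the highest 12 were the muscle troponin gene Tnnt1, Gprc5a, Fam89a, Mt1 and Gm3336, with p-values from 0.00135 to 0.0449 in the authors' deposited table.

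The lowest 12 were led by Sox18, a factor of endothelial cells, at 0.803 and 2.12 FPKM, and 2610019E17Rik, at 48.0 and 82.9 FPKM. Ppp1r16b, a regulatory subunit of protein phosphatase 1, was at 2.70 and 5.14 FPKM and came closest to a call among the 12 (p = 0.00075 and q = 0.0677 in the authors' deposited table). The others were BC066135, Gm5069, Mmp3, Cd209c, Fgf15, Sytl1, Slfn5, Gm10394 and Egln3. In the ordering by q, the called gene nearest the threshold was Cldn4 (q = 0.04995 in the authors' deposited table).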

How the data were processed

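RNA sequencing of 8 libraries was used as deposited. TopHat2 2.0.8, Cufflinks 2.1.1 and build mm10 are named per the submitters' processing notes; not given in the sources used here are their roles, the annotation, strand and normalization. The authors deposited 1 FPKM value per gene and group, a test statistic (a score with no fixed range), and p-values and q-values, in 6 comparisons. The deposited q-values equal Benjamini-Hochberg adjustment of all 78127 tests together, to within 5.21e-07. Names of 25 entries had become dates.

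Ratios were computed from FPKM, and log2 differences with a pseudocount of 1 FPKM. The difference between lines was tested by a two-sided normal approximation on log2 ratios (SE: ratio over test statistic). Its calculation was tested on simulated data that took these SEs as true, which does not test the SEs themselves. Python 3.11.15, pandas 2.3.3 and SciPy 1.17.1 were used. Per the labels' protocols, the 2 libraries of a group are biological replicates.

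The genes, the 41 lists and the tests were chosen with earlier results of these data known. Named genes were all called genes, the 12 highest and 12 lowest at an unadjusted p under 0.05, and, per list, the 2 most abundant and the largest rise and fall; others named, including list members at p under 0.05, were chosen after their values were seen. Of the genes this rule names, 1 called gene and some others are not reported here. The promoters shown and the 11 motifs searched were chosen after values and sequences were seen, and 4 motifs are described. The other 7 follow, searched on both strands, with their shares of all windows and of matched genes at 1 FPKM or more, and their count among the 10 called genes with an entry. The TATA box was sought as TATAA (24.9%, 15.6% and 3) and as TATAAA, which contains it (13.6%, 8.46% and 2). Narrower metal element cores were TGCGCNC (15.4%, 31.4% and 2) and TGCACNC (12.6%, 15.5% and 3). A GC box, GGGCGG, was in 35.7%, 71.4% and 6. An E-box, CACGTG, was in 7.15%, 12.3% and 0, and a Yy1 core, AGATGG, in 18.6%, 18.7% and 0.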

Additional observations from a re-analysis of the deposited data

Results flagged for a closer look

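The responses of the 2 lines to doxycycline differed for 18 of 12634 genes by the normal approximation from the authors' deposited statistics, of which 15 are small RNA genes and 3 are not. Prss50 differed by 2.26 on the log2 scale (clone 6 minus clone 7), with the values given above. Hist1h3c, a histone gene with near-identical copies, differed by 6.20 on the log2 scale. With doxycycline it was at 3.91 FPKM and without it at 0.629 FPKM in clone 6, and at 0.259 and 3.06 FPKM in clone 7 (adjusted p = 0.000758, from the authors' deposited statistics). Its own responses had p = 0.0505 in clone 6 and p = 0.137 in clone 7 in the authors' deposited table. Snhg9, a host gene of a small nucleolar RNA, differed by 1.17 (adjusted p = 1.14e-12, from the authors' deposited statistics). It was at 57.5 and 55.2 FPKM in clone 6 and at 23.4 and 50.5 FPKM in clone 7, with the wider gap in clone 7, and the p of its own response in the authors' deposited table was 0.947 in clone 6 and 0.344 in clone 7. With standard errors taken from the deposited p-values in place of the test statistics, none of the 18 genes passed.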

How the results depend on the processing

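No paired analysis was possible because the deposited values combine both libraries of a group, and for the same reason no library could be left out. The 14 genes called became 0 when p-values were adjusted within this comparison, over all tested genes, over those at 1 FPKM or more, or over those at 5 FPKM or more (smallest adjusted p 0.0929, 0.102 and 0.0729; 140, 128 and 90 genes at an unadjusted p under 0.05). The 110 genes higher and 75 lower by 1.5-fold became 202 and 153 with a pseudocount of 0.1 FPKM, and 57 and 31 without small RNA genes, an alternative chosen after seeing the data; a minimum of 5 FPKM, no minimum, equal FPKM totals and centring on the median kept them within 1.5 times. The 18 genes whose responses differed between lines became 0 with standard errors from the deposited p-values and 2 with small RNA genes left out, also chosen after seeing the data. List medians changed sign in 4 of 205 settings, for cytosolic ribosome, Atf4, imprinted and metallothionein genes, all within 0.1 of 0. They moved by more than 1.5 times in 44 settings, over 29 lists. Of the 14 lists with a median of 0.1 or more in size, 9 did so. With no minimum the medians were 0.23 for keratins, 0.06 for tight junctions, 0.12 for Cited coactivators, 0.08 for the streak, -0.08 for neural genes, 0.03 for endoderm, 0.12 for trophoblast and 0.07 for histones. With a minimum of 5 FPKM they were 0.18 for endoderm and 0.09 for histones, and with a pseudocount of 0.1 FPKM -0.17 for glycolysis.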
